A study of Homo sapiens with 6 samples.

Results

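LEF1, TCF7, TCF7L2, CTNNB1, APC, AXIN1, AXIN2, GSK3B, RNF43 and ZNRF3, 10 genes of the canonical WNT pathway, were followed in RNA sequencing of RKO cells with and without knockdown of TRMT6. They were chosen by symbol, and all 10 were found among the 20289 genes of the deposited table. RKO is an established human colorectal cancer cell line. The control group carried a control short hairpin RNA (shControl, 3 libraries, labelled WT) and the other group a hairpin against TRMT6 (shTRMT6, 3 libraries, labelled TRMT6 knockdown). TRMT6 is the non-catalytic subunit of the enzyme that methylates adenosine (m1A) in the T-loop of tRNAs. All 6 libraries came from the same line, and mRNA was enriched before library preparation. The hairpin sequences, the culture times and whether the cells were clones or pools are not given in the sources used here, nor is whether each replicate was its own culture. The p-values therefore speak only of differences among these libraries, whose spread may be technical.

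In the canonical WNT pathway, a destruction complex built on the scaffolds APC and AXIN, with the kinases GSK3 and casein kinase 1, marks β-catenin (CTNNB1) for degradation. When a WNT ligand binds a Frizzled receptor and an LRP co-receptor, the complex is inhibited, and β-catenin enters the nucleus and activates genes together with the DNA-binding factors of the TCF/LEF family. AXIN2, RNF43, ZNRF3, LEF1 and TCF7 are themselves textbook targets of this transcription, and the first 3 feed back to limit it. The pathway keeps intestinal stem cells dividing and is switched on in most colorectal cancers by truncation of APC; RKO is known as a line without such an APC truncation. The main activity of β-catenin is set by protein stability, which mRNA levels do not show.

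The targeted gene was measured first. TRMT6 read 14.43, 17.96 and 16.85 FPKM (fragments per kilobase of gene, scaled to the depth of the library) in the shControl libraries and 1.58, 1.73 and 1.09 FPKM in the shTRMT6 libraries, 11.2-fold lower. Over the whole table, 10592 genes averaged at least 1 FPKM and were tested, and 35.4% of them passed an adjusted p of 0.05 with limma (19.3% higher and 16.1% lower in shTRMT6). The groups did not overlap for 48.3% of the tested genes. Rough depths were 18100000 to 28500000 fragments per library when searched between 10000000 and 35000000, a range narrowed after a search from 5000000 to 60000000 had put shTRMT6 replicate 3 at 38500000. One library stood apart: in shControl replicate 1 the deviation from the mean of all libraries was 0.22 higher in log2 for every 10 points of transcript GC content, against -0.153 to 0.034 in the other 5 libraries, and fell by 0.054 for every doubling of transcript length, against -0.02 to 0.043. Values without this library, and with each library's trend on GC content removed (the GC correction), are therefore given beside the members they touch. Of 12 markers of colorectal epithelium, KRT18, KRT8, EPCAM and CDX2 were above 1 FPKM on average, while CDH1, CDX1, VIL1, KRT19, KRT20 and MUC2 were listed at 0 in all libraries. Their summed level was 124.0 to 156.0 FPKM in shControl and 201.0 to 214.0 FPKM in shTRMT6. KRT18 made up most of this sum and was called higher (118.0 to 186.0 FPKM on average, log2 fold change 0.66, adjusted p = 0.00053), as was EPCAM (4.2 to 6.29 FPKM, 0.50, adjusted p = 0.0282), while KRT8 (0.07) and CDX2 (-0.05) did not pass. The part of these differences in the results was not tested. The summed level of 9 fibroblast markers was 0.11 to 1.56 FPKM in shControl, the highest in replicate 3, and 0.07 to 0.13 FPKM in shTRMT6. Among 8 leukocyte markers only CD68 was above 1 FPKM on average. It was high in both groups, at 726.0 FPKM on average in shControl and 871.0 FPKM in shTRMT6, and did not pass (0.26, adjusted p = 0.102). PTPRC, the pan-leukocyte marker, reached 0.02 FPKM at most. Of 6 endothelial markers, the summed level reached 0.17 FPKM at most.

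The nuclear factors LEF1 and TCF7 were lower in shTRMT6, and no member passed the test as higher. Of the 9 members that reached the level for testing, LEF1 and TCF7 passed as lower and the other 7 did not pass; RNF43 was too low to test. The 2 calls are 22.2% of the members tested, beside 16.1% of all tested genes called lower and 35.4% called in either direction. At an unadjusted p of 0.05, limma gave 5 members lower (LEF1, TCF7, APC, AXIN1 and ZNRF3) and 0 higher; at that threshold 20.7% of all tested genes were lower and 25.2% higher. The median log2 fold change of the 9 was -0.27, against 0.024 over all tested genes. The log2 fold change was negative for 8 of the 9 and for 47.1% of all tested genes. Among the 8, GSK3B (-0.05) and TCF7L2 (-0.08) were near 0. AXIN2, also among the 8, passed the filter only through its shControl values, so its sign supports nothing further. Groups did not overlap for 4 members, LEF1, TCF7, AXIN1 and ZNRF3, all lower in shTRMT6; 22.1% of all tested genes were lower without overlap and 26.2% higher. Fold changes here are differences on the log2(FPKM + 1) scale, which understates the change of low genes.

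**Figure D1:**
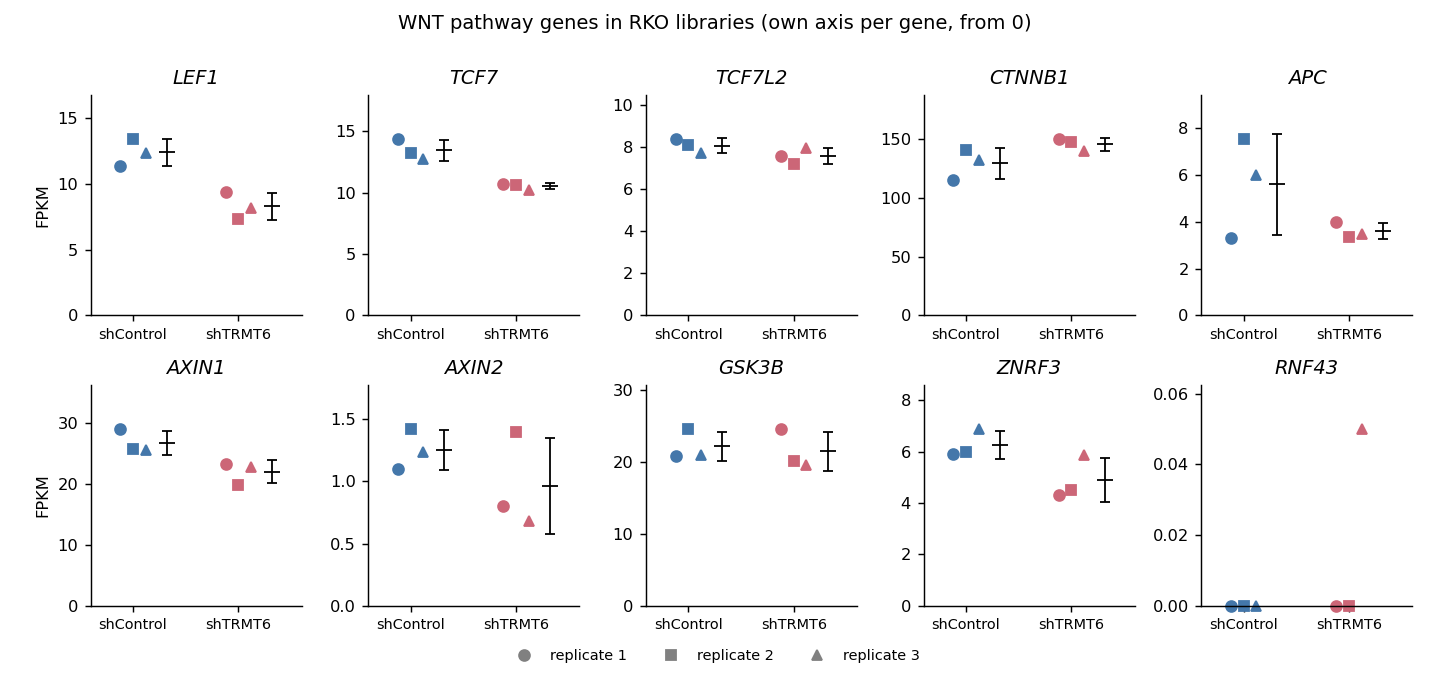
FPKM of each of the 10 genes in every library, with shControl in blue and shTRMT6 in red; each panel has its own vertical axis in FPKM, starting at 0. Symbols mark replicates and bars show mean and SD (n = 3, none drawn for RNF43). LEF1, TCF7, AXIN1 and ZNRF3 do not overlap between groups, and APC in shControl replicate 1 (3.29 FPKM) sits with the shTRMT6 libraries.

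LEF1 (lymphoid enhancer binding factor 1), a DNA-binding partner of β-catenin, showed the largest called decrease. The gene is ENSG00000138795, on chromosome 4, bases 108047545 to 108168956, minus strand (GENCODE release 29, GRCh38). LEF1 measured 11.35, 13.42 and 12.35 FPKM in the 3 shControl libraries, against 9.40, 7.34 and 8.14 FPKM in shTRMT6. Every shTRMT6 library was below every shControl library. The means were 12.4 ± 1.04 and 8.29 ± 1.04 FPKM (SD, n = 3 each), 1.49-fold lower, with a log2 fold change of -0.53 (SE 0.12, 95% interval -0.78 to -0.27, limma adjusted p = 0.00444). In bulk libraries, fewer cells expressing a gene and less mRNA per cell cannot be told apart. The LEF1 call held in all 17 alternatives run, with log2 fold changes of -0.61 to -0.44 and adjusted p from 0.000283 to 0.0249; it was -0.58 without shControl replicate 1 and -0.44 with the GC correction. These values rest on roughly 462 to 1274 fragments per library, if the longest annotated transcript is assumed. The antisense gene LEF1-AS1 is annotated over part of LEF1, as is SKP1 over part of TCF7, and whether the authors counted by strand is not given in the sources used here.

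TCF7 (also called TCF-1), a second factor of the family and itself a WNT target, was lower by a smaller amount. The gene is ENSG00000081059, on chromosome 5, bases 134114711 to 134151865, plus strand. TCF7 measured 14.41, 13.22 and 12.72 FPKM in the 3 shControl libraries, against 10.75, 10.61 and 10.25 FPKM in shTRMT6. The groups did not overlap, and the 3 shTRMT6 libraries lay close together. The means were 13.5 ± 0.868 and 10.5 ± 0.258 FPKM (SD, n = 3 each), 1.28-fold lower, with a log2 fold change of -0.32 (SE 0.10, 95% interval -0.55 to -0.10, limma adjusted p = 0.0275). This call was less stable than that of LEF1. It ended with the GC correction (-0.17, adjusted p = 0.119, and adjusted p = 0.0819 with the replicate block as well). It also ended without shControl replicate 2 (adjusted p = 0.0591) or 3 (0.0501), and equally on leaving out shTRMT6 replicate 1 (0.0798), 2 (0.0772) or 3 (0.0594), with log2 fold changes of -0.36 to -0.31 in these 5 fits.

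TCF7L2 (TCF-4), the TCF factor best known in the intestinal epithelium, did not pass the test. The gene is ENSG00000148737, on chromosome 10, bases 112950250 to 113167678, plus strand. TCF7L2 measured 8.40, 8.11 and 7.72 FPKM in the 3 shControl libraries, against 7.57, 7.18 and 7.95 FPKM in shTRMT6, and the groups overlapped. The log2 fold change was -0.08 (SE 0.11, 95% interval -0.32 to 0.15, adjusted p = 0.574), and -0.15 with the GC correction (adjusted p = 0.22). The fourth member of the family, TCF7L1, was listed at 0 in all 6 libraries.

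FPKM is scaled to gene length, so the 3 expressed factors can be set side by side within a library. Their summed level was 33.9 ± 1.03 FPKM in shControl and 26.4 ± 1.3 FPKM in shTRMT6 (SD, n = 3 each), with no overlap (32.8 to 34.8 against 25.1 to 27.7 FPKM). LEF1 gave 36.5% of the sum on average in shControl and 31.3% in shTRMT6, and TCF7L2 23.8% and 28.7%. The LEF1 share overlapped between groups (33.2% to 38.6% against 29.2% to 33.9%), and that of TCF7L2 did not (23.3% to 24.6% against 27.3% to 30.2%). The share of TCF7 was 38.0% to 42.2% in shControl and 38.8% to 42.2% in shTRMT6. The ratio of LEF1 to TCF7L2 within a library, in which a scaling factor common to all genes cancels, was 1.35, 1.65 and 1.6 in shControl and 1.24, 1.02 and 1.02 in shTRMT6. The ratio of TCF7 to TCF7L2 was 1.72, 1.63 and 1.65 in shControl and 1.42, 1.48 and 1.29 in shTRMT6. Neither ratio overlapped between groups. The log2 differences were -0.49 and -0.26, and the exact two-sided permutation p was 0.1 for each, the smallest that 3 libraries against 3 allow (0.35 adjusted over the 7 ratios computed, which were chosen after the values were seen). The ratio of LEF1 to TCF7 overlapped between groups, with a log2 difference of -0.23 (exact permutation p = 0.3, adjusted 0.525). A trend on GC content need not cancel in these ratios, as the transcripts differ in GC (TCF7 57.1%, LEF1 52.1%, TCF7L2 45.8%). With the GC correction the log2 fold changes were -0.17 for TCF7, -0.15 for TCF7L2 and -0.44 for LEF1. TCF7 and TCF7L2 then moved by nearly the same amount, and the part of GC content in the ratios was not tested.

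**Figure D2:**
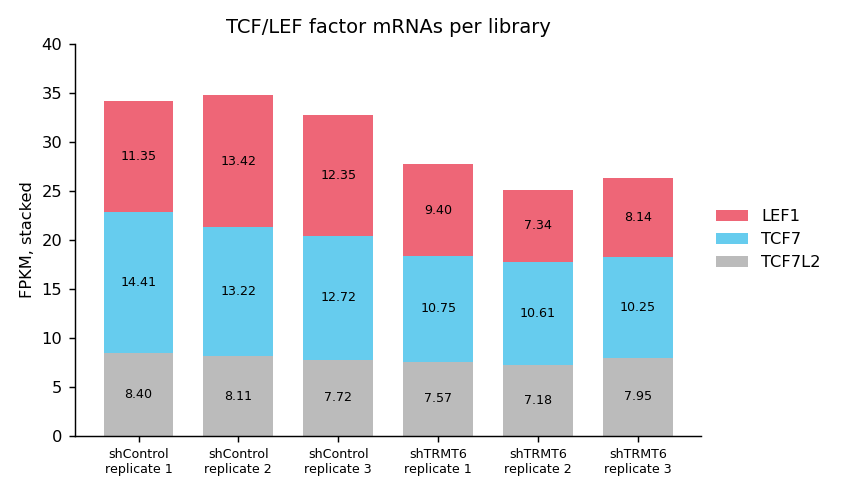
Stacked bars of LEF1, TCF7 and TCF7L2 in FPKM for each library, from 0, with each value printed in its segment. The total is 32.8 to 34.8 FPKM in the shControl libraries and 25.1 to 27.7 FPKM in the shTRMT6 libraries, while the TCF7L2 segment stays between 7.18 and 8.40 FPKM.

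LEF1 and TCF7 are each known to be transcribed from more than 1 promoter, and the internal ones make shorter proteins that lack the β-catenin binding region. The deposited values are per gene and do not separate these forms. For the 2 called members, the 100 bases before a RefSeq start (GRCh38.p14) are shown, 5′ to 3′ on the strand of the gene. For LEF1 it is the only start in the RefSeq table used, and it lies 2655 bases inside the 5′ end of the gene in GENCODE release 29. The TCF7 start is the first of 2 in that table and lies 902 bases inside the GENCODE 5′ end. Which starts were used in these cells was not measured.
LEF1, chr4:108166302-108166401, minus strand: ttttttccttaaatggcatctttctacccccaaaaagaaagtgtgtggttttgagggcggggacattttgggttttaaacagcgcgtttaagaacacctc
TCF7, chr5:134115513-134115612, plus strand: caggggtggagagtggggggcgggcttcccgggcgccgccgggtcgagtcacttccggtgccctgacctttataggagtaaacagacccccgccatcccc
The LEF1 stretch is 42.0% G and C and the TCF7 stretch 69.0%. A second TCF7 start is annotated 8005 bases downstream.

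Promoter windows of 300 bases around a start were found in the RefSeq table for 8 of the 10 members, 13 windows in all. They were searched on both strands for CTTTGAT and CTTTGTT, words of the TCF/LEF recognition sequence that do not overlap each other. CTTTGAT was in 0 of the 13 windows and in 2.62% of all 35116 windows, and CTTTGTT in 2 of the 13 and in 5.2% of all. The 2 matches, shown with 20 bases on each side and the word in capitals, lie at internal starts of TCF7 (on the opposite strand) and TCF7L2.
TCF7, internal start, chr5:134123548-134123594, plus strand: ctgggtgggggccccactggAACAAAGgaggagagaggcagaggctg
TCF7L2, internal start, chr10:113126480-113126526, plus strand: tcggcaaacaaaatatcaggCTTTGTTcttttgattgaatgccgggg
Of these 2 genes TCF7 was called lower and TCF7L2 was not, and LEF1, the member with the largest called decrease, had no such word in its window. A match is a description of these letters and not a binding site.

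CTNNB1, which encodes β-catenin, was by far the most abundant member, and its difference did not pass the test. The gene is ENSG00000168036, on chromosome 3, bases 41194741 to 41260096, plus strand. CTNNB1 measured 114.69, 140.97 and 132.31 FPKM in the 3 shControl libraries, against 150.20, 147.28 and 139.48 FPKM in shTRMT6. The groups overlapped, with shControl replicate 2 between the shTRMT6 libraries. On the log2 scale the difference was 0.17 (SE 0.10, 95% interval -0.04 to 0.39, adjusted p = 0.18), 0.03 with the GC correction and 0.09 without shControl replicate 1.

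Among the scaffolds and the kinase of the destruction complex, none passed the test in the fit used throughout. APC is the large scaffold whose loss starts most colorectal tumours, ENSG00000134982 on chromosome 5, bases 112707498 to 112846239, plus strand. APC measured 3.29, 7.56 and 6.01 FPKM in the 3 shControl libraries, against 3.99, 3.34 and 3.50 FPKM in shTRMT6. Replicates 2 and 3 of shControl were higher than every shTRMT6 library, and shControl replicate 1 was the lowest of all 6. The log2 fold change was -0.47 (SE 0.20, 95% interval -0.90 to -0.04, adjusted p = 0.0824). Without shControl replicate 1, APC passed at -0.75 (adjusted p = 0.00228), and without shControl replicate 2 it was -0.25 (adjusted p = 0.294). It also passed with the replicate block (adjusted p = 0.0101), under which calls over all tested genes were 21.3% lower and 25.5% higher, with the GC correction (-0.66, adjusted p = 0.00996, and 0.00969 with the block as well) and with quantile normalization (adjusted p = 0.0445). With a longest transcript of 10701 bases at 39.6% GC, APC is the longest and the lowest in GC of the 10 members.

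AXIN1, the scaffold thought to limit how much destruction complex can form, is ENSG00000103126 on chromosome 16, bases 287440 to 352673, minus strand. AXIN1 measured 29.02, 25.71 and 25.52 FPKM in the 3 shControl libraries, against 23.30, 19.85 and 22.88 FPKM in shTRMT6, without overlap. The log2 fold change was -0.27 (SE 0.11, 95% interval -0.50 to -0.04), and the adjusted p of 0.0597 missed the threshold. AXIN1 passed with the replicate block (adjusted p = 0.0177) and with median-of-ratios scaling (0.0427), and was -0.10 (adjusted p = 0.316) with the GC correction. Its transcript, at 63.2% GC, is the highest in GC of the members.

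AXIN2, the scaffold made in response to WNT signalling and widely used as its readout, was expressed at a low level. The gene is ENSG00000168646, on chromosome 17, bases 65528563 to 65561647, minus strand. AXIN2 measured 1.10, 1.42 and 1.24 FPKM in the 3 shControl libraries, against 0.80, 1.40 and 0.68 FPKM in shTRMT6. Replicates 1 and 3 of shTRMT6 were below all shControl libraries, and replicate 2 was near the highest of them. The log2 fold change was -0.22 (SE 0.16, 95% interval -0.55 to 0.12, adjusted p = 0.296). It was -0.37 (adjusted p = 0.0997) without shTRMT6 replicate 2, and -0.11 both without shTRMT6 replicate 3 (0.622) and with the GC correction (0.619). These values rest on roughly 56 to 165 fragments per library. The shTRMT6 mean of 0.96 FPKM was below the filter, which AXIN2 passed only through shControl.

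GSK3B, the kinase that phosphorylates β-catenin, is ENSG00000082701 on chromosome 3, bases 119821323 to 120094417, minus strand. It measured 20.88, 24.56 and 21.05 FPKM in the 3 shControl libraries, against 24.58, 20.21 and 19.63 FPKM in shTRMT6, so that each group had 1 library near 24.6 FPKM. On the log2 scale the difference was -0.05 (SE 0.11, 95% interval -0.29 to 0.20, adjusted p = 0.782). Within a library, AXIN1 to GSK3B ran from 1.05 to 1.39 in shControl and from 0.948 to 1.17 in shTRMT6, which overlapped (exact permutation p = 0.2, adjusted 0.467).

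ZNRF3 and RNF43 are paired membrane ubiquitin ligases that remove Frizzled receptors from the surface, and both are known WNT targets. ZNRF3 (ENSG00000183579, chromosome 22, bases 28883592 to 29057487, plus strand) measured 5.92, 5.98 and 6.88 FPKM in the 3 shControl libraries, against 4.32, 4.51 and 5.86 FPKM in shTRMT6. The groups did not overlap, though shTRMT6 replicate 3 was just below shControl replicate 1. The log2 fold change was -0.31 (SE 0.13, 95% interval -0.59 to -0.03, adjusted p = 0.0797). ZNRF3 passed with the replicate block (adjusted p = 0.0361), with quantile normalization (0.0425) and without shTRMT6 replicate 3 (-0.42, adjusted p = 0.0287). It did not pass in the other 14 alternatives. Among these it was -0.19 with the GC correction (adjusted p = 0.206) and -0.24 without shTRMT6 replicate 1 (0.274). RNF43 (ENSG00000108375, chromosome 17, bases 58352500 to 58417595, minus strand) was listed at 0 in 5 libraries and at 0.05 FPKM in shTRMT6 replicate 3, roughly 5 fragments. Of the pair, only ZNRF3 was therefore measurable in these cells.

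**Figure D3:**
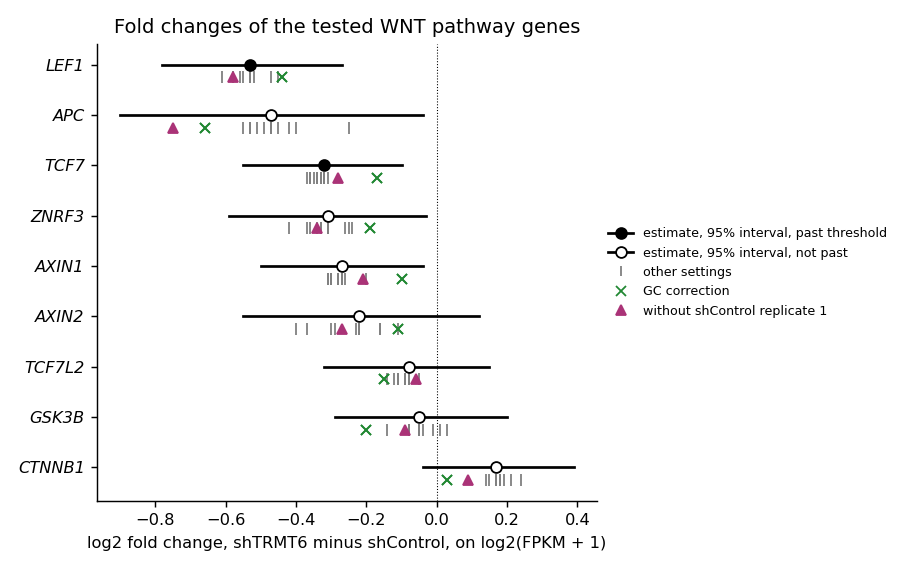
Log2 fold changes (shTRMT6 minus shControl, on log2(FPKM + 1)) of the 9 tested members with 95% intervals; filled circles passed an adjusted p of 0.05. Marks below each line are the alternatives, with the GC correction as crosses and the fit without shControl replicate 1 as triangles. LEF1 runs from -0.61 to -0.44, and APC has the widest range, -0.75 to -0.25.

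The order of mean levels was the same in the 2 groups. In shControl it was CTNNB1 (129.0 FPKM on average), AXIN1 (26.8), GSK3B (22.2), TCF7 (13.5), LEF1 (12.4), TCF7L2 (8.08), ZNRF3 (6.26), APC (5.62), AXIN2 and RNF43. The ranges of TCF7 and LEF1 overlapped, as did those of ZNRF3 and APC, so these neighbours did not differ beyond their spread. In shTRMT6 the means kept this order, and the overlapping neighbours were AXIN1 with GSK3B (22.0 and 21.5 FPKM) and LEF1 with TCF7L2 (8.29 and 7.57 FPKM).

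GC content moved with fold changes over all genes, and its part in the members' values was not tested. CTNNB1, GSK3B, APC and TCF7L2, at 39.6% to 45.8% GC, lie where the median of all tested genes was above 0. TCF7, AXIN1, ZNRF3, AXIN2 and LEF1, at 52.1% to 63.2%, lie where it was below 0. Genes in the 2-point bin of APC had a median log2 fold change of 0.26, and those in the bin of AXIN1 -0.15. With the GC correction the log2 fold changes of TCF7, AXIN1, ZNRF3 and AXIN2 shrank to -0.17, -0.10, -0.19 and -0.11. Those of APC, GSK3B and TCF7L2 grew to -0.66, -0.20 and -0.15, and LEF1 and APC were the members called.

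**Figure D4:**
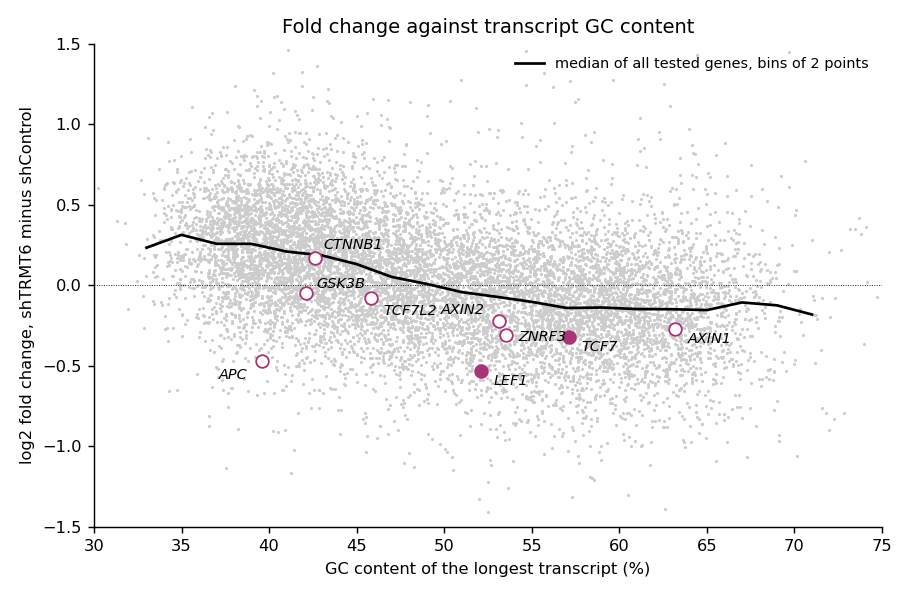
Log2 fold change (vertical axis, shTRMT6 minus shControl) against GC content of the longest transcript in percent (horizontal axis) for all tested genes in grey, with their median in bins of 2 points as a line and the members as circles, filled where called. LEF1 and APC lie farthest below the line; 27 genes fall outside the axes.

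The rest of the pathway was read from 11 lists by role, 150 genes in all including the 10 members; 85 were tested. Across them 9 genes were higher and 16 lower, and 60 did not pass, so 29.4% were called beside 35.4% of all tested genes. The 9 include WNT10A, which reached the level for testing only through its shTRMT6 values. The median log2 fold change was -0.11, against 0.024 over all tested genes. After the GC correction 14 were higher and 16 lower, moving the higher share of the calls from 36.0% to 46.7%. Over all tested genes, 2042 were higher and 1704 lower before the correction, and 2311 and 1768 after it. Without shTRMT6 replicate 2 the count of lower genes in the lists was 8, beside 1112 of all tested genes. From 7 to 9 list genes were higher in the fits that leave out 1 library.

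Of 19 WNT ligand genes only WNT11, WNT10A and WNT3 reached the level for testing, and 7 were listed at 0 in all libraries. WNT11, a ligand best known for β-catenin-independent signalling, rose from 2.15 ± 0.393 to 3.51 ± 0.588 FPKM (SD, n = 3 each), 1.63-fold (log2 fold change 0.52, limma adjusted p = 0.013). WNT10A, a ligand that signals through β-catenin, rose from 0.867 ± 0.0462 to 1.57 ± 0.235 FPKM, 1.81-fold (0.46, adjusted p = 0.0164). All shControl values of WNT10A were below 1 FPKM, so it passed the filter on the mean only through its shTRMT6 values, and its call and the ligand count that includes it support nothing further. The WNT11 call ended without shTRMT6 replicate 3 (adjusted p = 0.0547), and the WNT10A call without shControl replicate 3 (0.0547) or shTRMT6 replicate 2 (0.0813). PORCN, the enzyme that attaches the lipid that WNTs need for secretion, fell from 16.1 ± 1.47 to 12.0 ± 1.63 FPKM (-0.40, adjusted p = 0.0206), a call that ended with the GC correction (-0.24, adjusted p = 0.0624). It also ended when low genes were also tested (0.0591), without shControl replicate 3 (0.066) and on leaving out shTRMT6 replicate 1 (0.076) or 2 (0.0982). The carrier WLS read 75.5 ± 6.87 and 67.2 ± 6.86 FPKM and did not pass (adjusted p = 0.23).

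Of 16 receptors and co-receptors 11 were tested, and LRP5 and PTK7 fell. These calls are 18.2% of the 11, beside 16.1% of all tested genes called lower and 35.4% called in either direction. LRP5, a co-receptor for WNT, measured 35.77, 32.94 and 37.59 FPKM in the 3 shControl libraries, against 19.31, 16.56 and 23.45 FPKM in shTRMT6. Every shTRMT6 library was well below every shControl library, and the log2 fold change was -0.82 (SE 0.12, adjusted p = 0.000389), 1.79-fold lower; it was -0.65 with the GC correction. Its paralog LRP6 read 3.45 ± 0.998 and 4.25 ± 0.282 FPKM (0.26, adjusted p = 0.21; 0.07 without shControl replicate 1 and 0.08 with the GC correction). PTK7, a pseudokinase receptor of the planar polarity branch, fell from 76.2 ± 4.54 to 52.5 ± 7.76 FPKM (-0.54, adjusted p = 0.00286). None of the 7 Frizzled receptors tested, FZD2 to FZD8, passed. FZD1 was too low to test on its mean, with 1.05, 1.22 and 1.09 FPKM in the 3 shControl libraries against 0.48, 0.55 and 0.68 FPKM in shTRMT6, and was called lower when low genes were also tested (-0.43, adjusted p = 0.00883). It was named after its values were seen.

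In the receptor turnover list only ZNRF3 and LGR4 were tested, and LGR5, LGR6, RSPO1, RSPO3 and RSPO4 were listed at 0 in all libraries. LGR4, a receptor for R-spondins, which inhibit ZNRF3 and RNF43, measured 1.43, 2.78 and 2.74 FPKM in the 3 shControl libraries, against 1.90, 1.67 and 1.67 FPKM in shTRMT6. As for APC, shControl replicate 1 was the lowest of all 6 libraries; LGR4 did not pass (-0.24, adjusted p = 0.271), but did without that library (-0.45, adjusted p = 0.0164) and with the GC correction (-0.40, adjusted p = 0.0402). Leaving out shControl replicate 2 or 3 gave -0.14 each (adjusted p = 0.58 and 0.599).

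Of 18 listed secreted and membrane antagonists, 15 were too low to test, and the 3 tested, TRABD2A, KREMEN1 and KREMEN2, fell. Over all tested genes 16.1% were called lower and 35.4% in either direction, and 3 genes are too few for a share. TRABD2A (TIKI1), a protease that inactivates WNT ligands, measured 19.96, 22.18 and 24.49 FPKM in the 3 shControl libraries, against 11.06, 11.06 and 14.31 FPKM in shTRMT6 (-0.83, SE 0.12, adjusted p = 0.000389), 1.83-fold lower. KREMEN1 and KREMEN2, receptors for the secreted inhibitors of the DKK family, fell 1.51-fold and 1.55-fold (-0.54, adjusted p = 0.00837, and -0.59, adjusted p = 0.0103). The KREMEN2 call ended when low genes were also tested (adjusted p = 0.0643). DKK1, SFRP1 and SFRP2 reached at most 0.04 FPKM, and 8 of the 18 were listed at 0 in all libraries. With the GC correction the 3 calls were also made, at -0.67, -0.40 and -0.41.

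**Figure D5:**
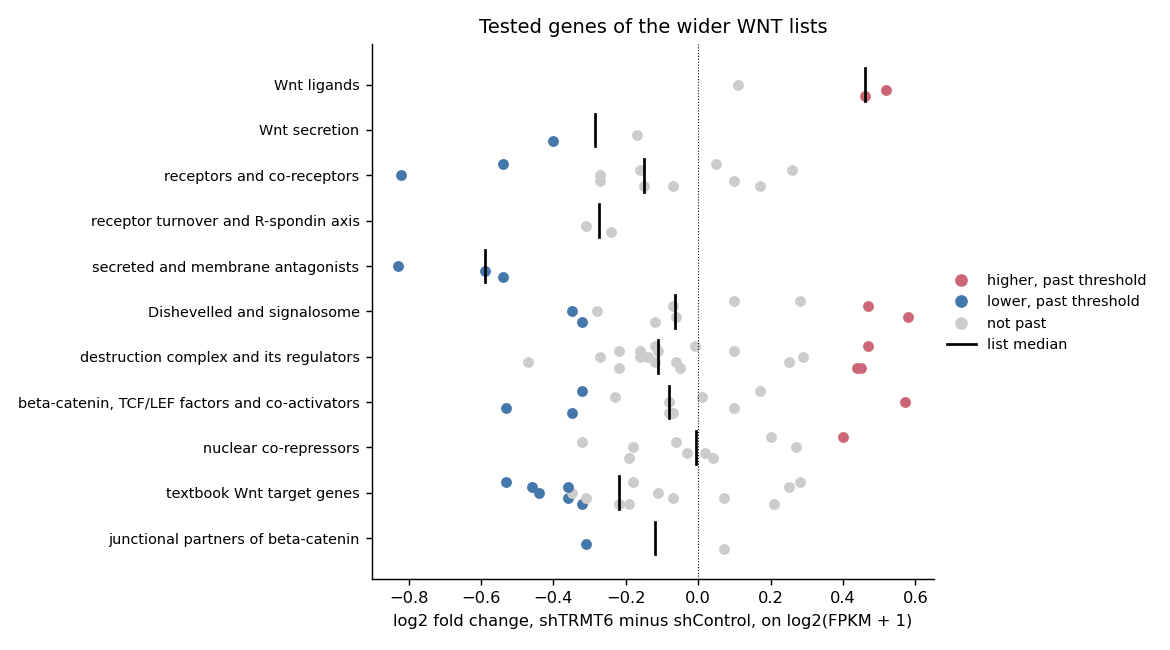
Log2 fold change (shTRMT6 minus shControl, on log2(FPKM + 1)) of each tested gene in the 11 lists by role, in rows, with the vertical bar at the list median. Red and blue points passed an adjusted p of 0.05 as higher or lower and grey points did not; the vertical position within a row has no meaning. The 3 tested antagonists lie between -0.83 and -0.54.

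Of 10 tested genes around Dishevelled 2 rose and 2 fell, so 4 of 10 were called beside 35.4% of all tested genes, a share near the background. The casein kinases CSNK1G1 and CSNK1G3, of the membrane-bound family that phosphorylates LRP6, rose 1.58-fold and 1.43-fold (0.58, adjusted p = 0.00255, and 0.47, adjusted p = 0.0103). With the GC correction CSNK1G3 was 0.25 (adjusted p = 0.0496). Their relative CSNK1G2 and the Dishevelled-binding CCDC88C each fell 1.28-fold (-0.35, adjusted p = 0.011, and -0.32, adjusted p = 0.0318). The calls of the pair that fell ended with the GC correction (adjusted p = 0.0997 and 0.179) and without shTRMT6 replicate 2 (0.0585 and 0.0987); that of CCDC88C also without shControl replicate 2 (0.0682) or 3 (0.0911) and on leaving out shTRMT6 replicate 1 (0.106) or 3 (0.0508).

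Of 19 tested genes of the destruction complex and its regulators, 4 of them members, 3 rose and 16 did not pass. The calls are 15.8% of the 19, beside 19.3% of all tested genes called higher and 35.4% called in either direction. CSNK1A1, the casein kinase that primes β-catenin for GSK3, rose from 45.8 ± 4.42 to 62.4 ± 5.60 FPKM (0.44, adjusted p = 0.00665). PPP2R5E, a regulatory subunit of protein phosphatase 2A, rose 1.42-fold (0.47, adjusted p = 0.0073). RNF146, the ubiquitin ligase that acts with tankyrase to degrade AXIN, rose from 3.52 ± 0.346 to 5.19 ± 0.821 FPKM (0.45, adjusted p = 0.0176). The RNF146 call ended when low genes were also tested (adjusted p = 0.0561), without shControl replicate 3 (0.0714) and on leaving out shTRMT6 replicate 2 (0.096). With the GC correction the same count rose, at 0.24, 0.26 and 0.34 for these genes, and APC, FBXW11, USP34 and PPP2CA were called lower. Over all 10592 tested genes that fit called 2311 higher and 1768 lower.

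Among 11 tested genes for β-catenin, TCF/LEF factors and co-activators, LEF1, TCF7 and BCL9 fell and CDC73 rose. That is 36.4% called, near the 35.4% of all tested genes. BCL9, which links β-catenin to PYGO proteins, fell from 6.70 ± 0.373 to 5.04 ± 0.378 FPKM (-0.35, adjusted p = 0.0284). Its call ended with the GC correction (-0.24, adjusted p = 0.0508), when low genes were also tested (0.0526), without shControl replicate 3 (0.0737) and without any 1 of the shTRMT6 libraries (0.0517 to 0.101). CDC73, a subunit of the PAF1 elongation complex that binds β-catenin, rose from 10.9 ± 1.74 to 16.8 ± 3.01 FPKM (0.57, adjusted p = 0.00844; 0.0527 when low genes were also tested, and 0.32 in log2 with the GC correction). Of 10 tested co-repressors only HIC1 passed, at 3.74 ± 0.158 and 5.31 ± 1.19 FPKM (0.40, adjusted p = 0.0432). The HIC1 call ended in 8 alternatives, 5 of them with 1 library left out, with adjusted p up to 0.163. CTNND1, the p120 catenin of cell junctions, fell from 23.4 ± 0.811 to 18.7 ± 0.566 FPKM (-0.31, adjusted p = 0.0233), a call that ended without shControl replicate 2 (0.0645) or shTRMT6 replicate 1 (0.105) or 2 (0.059). CDH1, which holds β-catenin at junctions in most epithelia, was listed at 0 in all libraries.

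Of 34 textbook WNT target genes 17 were tested, of which 6 fell, 0 rose and 11 did not pass. The calls are 35.3%, beside 35.4% of all tested genes called in either direction and 16.1% called lower. With the GC correction 5 were called lower, and MYC and SOX4 higher. That fit called 1768 of all 10592 tested genes lower and 2311 higher. The list includes 5 members, of which AXIN2, LEF1, TCF7 and ZNRF3 were tested. Besides LEF1 and TCF7, those that fell were CCND1, PPARD, JUN and BIRC5. CCND1, the G1 cyclin D1, measured 37.34, 39.98 and 39.32 FPKM in the 3 shControl libraries, against 30.06, 26.61 and 27.62 FPKM in shTRMT6 (-0.46, SE 0.10, adjusted p = 0.00301), 1.38-fold lower without overlap. PPARD, a nuclear receptor for fatty acids, fell 1.40-fold (-0.44, adjusted p = 0.0132). The transcription factor JUN fell 1.28-fold from 216.0 ± 12.4 FPKM (-0.36, adjusted p = 0.00914), and BIRC5 (survivin), a mitotic protein that also varies with cell division, fell 1.29-fold (-0.36, adjusted p = 0.0104). With the GC correction JUN was -0.20 and PPARD -0.28, both called. Without shTRMT6 replicate 2 their calls ended (adjusted p = 0.0593 and 0.0685), and 3 targets were called lower, beside 1112 of all tested genes.

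MYC, the best known target, was higher in every shTRMT6 library (264.96, 230.88 and 246.29 FPKM) than in every shControl library (217.66, 208.84 and 215.72 FPKM), but did not pass (0.21, adjusted p = 0.0867). It was chosen after its values were seen. MYC was called higher with the replicate block and with the GC correction (0.33, adjusted p = 0.00498). The stem cell targets LGR5 and ASCL2, and also APCDD1, TNFRSF19 and MMP7, were listed at 0 in all libraries, and 17 of the 34 targets were too low to test. Targets of WNT are also driven by other pathways, and these values do not separate the sources.

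The genes whose pattern over the 6 libraries was most like that of a called member were named by their Pearson correlation of log2(FPKM + 1), as a description of libraries that fall into 2 groups. For LEF1 they were CA2, a carbonic anhydrase (r = 0.997), MPP3, a membrane scaffold (r = 0.995), and FOCAD (r = 0.993), which itself did not pass the test (adjusted p = 0.138). For TCF7 they were MCM7 and MCM2, subunits of the replicative helicase (r = 0.999 and 0.998), and the phospholipase PLCG1 (r = 0.999). Such patterns were common: 96 tested genes had an r above 0.95 with LEF1 and 504 with TCF7.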

How the data were processed

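The authors deposited FPKM values, 1 for each gene in each of the 6 libraries. RSEM, StringTie 1.3.1, HISAT2, Bowtie2 2.2.8 and fastp 0.18.0 were used, per the submitters' processing notes, in roles that are not stated, and the genome build is not given in the sources used here. Alternatives were 2 other pseudocounts, 2 filters, quantile and median-of-ratios scaling, 2 variance priors, the GC correction, the replicate block, both together, and leaving out each library. Columns abbreviated NC and SH were matched to shControl and shTRMT6 titles by prefix and number. Gene symbols were matched through a names table (20257 identifiers) and GENCODE release 29 (30); positions, lengths and GC content came from GENCODE release 29. Genes averaging 1 FPKM or more were tested with limma 3.58.1 in R 4.3.3, with log2(FPKM + 1) as the response, a variance prior that follows the mean, and Benjamini-Hochberg adjustment over all 10592 genes, threshold 0.05. Depths were estimated from the steps between low FPKM values of genes of at most 1000 bases and are rough. The GC correction removed each library's loess trend (span 0.5) on GC content; 19 tested genes had no GC value. Deviations from the group mean correlated at 0.206, 0.364 and 0.17 between libraries of the same replicate number and at -0.288 to 0.0936 between others, so a replicate block was an alternative; what the numbers mark is not in the labels. On data simulated for this comparison (10592 genes), 93% of 100 genes changed by 1 in log2 and 41% of 100 changed by 0.5 were recovered. Of 139 calls 5 were false. Only these genes were changed, a far smaller part than the 35.4% called here, with independent noise and no trend on GC content or replicate number. The simulated rates therefore need not hold for the real libraries. Permutation tests used scipy 1.17.1. Genes named were all members and, from each list, up to 6 past the threshold by size of change, or, in lists with no call, the 2 most abundant; any other gene was named after its values were seen. Members, lists and tests were chosen with earlier results of these data known.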

Additional observations from a re-analysis of the deposited data

How the results depend on the processing

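Of the 17 alternatives run, LEF1 kept its call in each, and TCF7 in 10. GSK3B was the member whose log2 fold change changed sign: it was -0.05 with all libraries, 0.03 without shControl replicate 2 and 0.01 without shTRMT6 replicate 3 (range with 1 library left out -0.14 to 0.03). With the replicate block, which treats libraries of the same number as pairs, 5 members were lower (LEF1, TCF7, APC, AXIN1 and ZNRF3). Lower calls over all tested genes then went from 1704 to 2252 and higher calls from 2042 to 2702. The block changed the call of no other member. With quantile normalization 4 members were lower, beside 1930 of all tested genes. With 1 library left out, 1 to 3 members were lower, and over all tested genes 1295 to 2027 were higher and 1112 to 1731 lower. In the wider lists 8 to 20 genes were then lower. In these lists 9 genes were higher in the fit used throughout, 14 with the GC correction and 17 with the GC correction and the replicate block. Over all tested genes, the higher calls in these 3 fits were 2042, 2311 and 2843. The log2 difference of AXIN1 to AXIN2 ran from -0.08 to 0.55 and that of ZNRF3 to LGR4 from -0.21 to 0.26 with 1 library left out, around 0.17 and -0.02 with all. Causes of these changes were not tested. RNF43 was at or near 0, and AXIN2 rests on few fragments, which limits what can be read for both.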
